A study of Homo sapiens with 12 samples.

Results

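The 10 genes described here are 6 growth factor receptors (EGFR, ERBB2, ERBB3, MET, AXL and FGFR1) and 4 ligands of EGFR (AREG, EREG, HBEGF and TGFA), out of 57879 genes in the files. They were chosen by name, with earlier results of these data known, and each was matched to 1 row by its Ensembl identifier. The cells were A549, a human lung adenocarcinoma line, and all had been infected with lentivirus to make stable lines. The vector group carried an empty expression vector and the TIF1γ group an expression construct for TIF1γ, a ubiquitin ligase and chromatin factor of SMAD signalling encoded by TRIM33. The sh-NC group carried an empty shRNA vector and the sh-TAF15 group an shRNA against TAF15, a FET family protein that binds RNA. The genotype label calls both empty-vector groups WT. Each of the 4 groups has 3 biological replicates per the labels, 12 samples together, and 8 of them were used. These were the 3 vector samples, samples 2 and 3 of TIF1γ, sample 2 of sh-NC and samples 2 and 3 of sh-TAF15, and the remaining 4 are not analysed here. How many clones or infections stand behind a line is not given in the sources used here.

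Receptor tyrosine kinases sit in the cell membrane, bind a growth factor outside the cell, pair up and phosphorylate each other, and so switch on the RAS-ERK and PI3K-AKT relays. EGFR, ERBB2 and ERBB3 belong to the ErbB family: EGFR binds the EGF-like ligands, ERBB2 has no known ligand and serves as a partner, and ERBB3 binds neuregulins and has little kinase activity of its own. AREG (amphiregulin), EREG (epiregulin), HBEGF (heparin-binding EGF-like growth factor) and TGFA (transforming growth factor alpha) are made as membrane-bound precursors that proteases of the ADAM family cut free. MET binds HGF, AXL binds GAS6, and FGFR1 binds fibroblast growth factors. In lung adenocarcinoma these receptors are best known as drug targets, and MET and AXL as bypass receptors when EGFR is inhibited.

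The make-up of the 4 ligand transcripts separated the shRNA lines from the other lines most plainly, so the bases just before their start sites are shown first. The sequences are from RefSeq on GRCh38.p14, from which windows were taken for 8 of the 10 genes. Each is 250 bases ending at the base before the first-listed start, read 5′ to 3′ along the gene. Capitals mark matches, on either strand, to 4 motifs: the AP-1 site (TGANTCA), the cAMP response element (TGACGTCA), the TEAD site (GGAATG) and the GC box (GGGCGG). AREG lies at chr4:74444886-74445135 on the plus strand, EREG at chr4:74364895-74365144 on the plus strand, HBEGF at chr5:140346604-140346853 on the minus strand, and TGFA at chr2:70553827-70554076 on the minus strand.
AREG: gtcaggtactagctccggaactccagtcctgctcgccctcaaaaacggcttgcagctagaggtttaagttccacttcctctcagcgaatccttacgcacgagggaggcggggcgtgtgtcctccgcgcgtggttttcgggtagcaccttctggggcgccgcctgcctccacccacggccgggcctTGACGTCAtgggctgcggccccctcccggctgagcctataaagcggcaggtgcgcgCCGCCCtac
EREG: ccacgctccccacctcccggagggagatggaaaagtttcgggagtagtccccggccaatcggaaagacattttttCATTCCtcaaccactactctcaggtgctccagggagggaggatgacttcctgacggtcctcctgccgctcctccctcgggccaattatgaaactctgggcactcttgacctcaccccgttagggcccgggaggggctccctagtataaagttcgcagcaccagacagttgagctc
HBEGF: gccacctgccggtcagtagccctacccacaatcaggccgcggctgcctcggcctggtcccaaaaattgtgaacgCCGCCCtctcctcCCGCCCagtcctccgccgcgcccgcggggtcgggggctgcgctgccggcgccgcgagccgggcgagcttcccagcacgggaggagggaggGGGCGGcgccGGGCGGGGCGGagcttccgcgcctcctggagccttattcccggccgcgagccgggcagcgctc
TGFA: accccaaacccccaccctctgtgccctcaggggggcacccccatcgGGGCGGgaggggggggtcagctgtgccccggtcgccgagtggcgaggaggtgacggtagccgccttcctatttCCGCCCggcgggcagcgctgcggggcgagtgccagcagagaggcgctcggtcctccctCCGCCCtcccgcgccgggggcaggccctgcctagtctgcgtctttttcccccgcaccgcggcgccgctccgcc

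AREG and EREG are neighbours, with start sites 79991 bases apart. The AREG window held 1 cAMP response element, 65 bases before the start, a motif present in 1.65% of 35116 promoter windows of that length, and 1 GC box. The EREG window held 1 TEAD site, present in 11.9% of windows, and no other match. The HBEGF window held 5 GC boxes, 2 of which overlap, and the TGFA window 3. At least 1 GC box was found in 42.6% of windows. The HBEGF and TGFA windows had a GC content of 76.4% and 75.6%, against 65.2% for AREG, 58.0% for EREG and a median of 58.0% over all windows. The AP-1 site, found in 6.57% of windows, had no match in these 4. A window before a further listed TGFA start, not shown, had a GC content of 64.0% and no match to any of the motifs. Such matches describe letters and are no measurement of binding.

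The unit of the deposited levels is FPKM, in which fragment numbers are divided by the length of the transcript and by library depth, so levels can be set side by side between genes. Low values fell on steps of 1 fragment, which gave a depth of about 16000000 to 21200000 fragments per library. At that depth 1 fragment on a transcript of 3 kilobases was worth 0.0173 to 0.0228 FPKM. TRIM33 stood at 2.23, 2.10 and 1.27 FPKM in the vector libraries and at 8.03 and 6.14 in the TIF1γ libraries. Its log2 difference was 1.44 (SE 0.27, limma adjusted p = 0.13). The level of TAF15 is not analysed here, since no name table at hand pairs its symbol with a row, so the knockdown was not checked. All 6 epithelial markers reached 1 FPKM, but KRT8 and KRT18 are listed at 0 in both TIF1γ libraries beside high values elsewhere, and KRT19 was at 26.9 to 61.7 FPKM in the vector and TIF1γ libraries and 0.243 to 0.775 in the shRNA libraries. KRT7 stood at 1764 to 3746 FPKM in the former and 1516 to 1922 in the latter, and CDH1 at 4.27 to 10.9 in the former, 0.857 in sh-NC, and 6.96 and 6.004 in sh-TAF15.

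**Figure D1:**
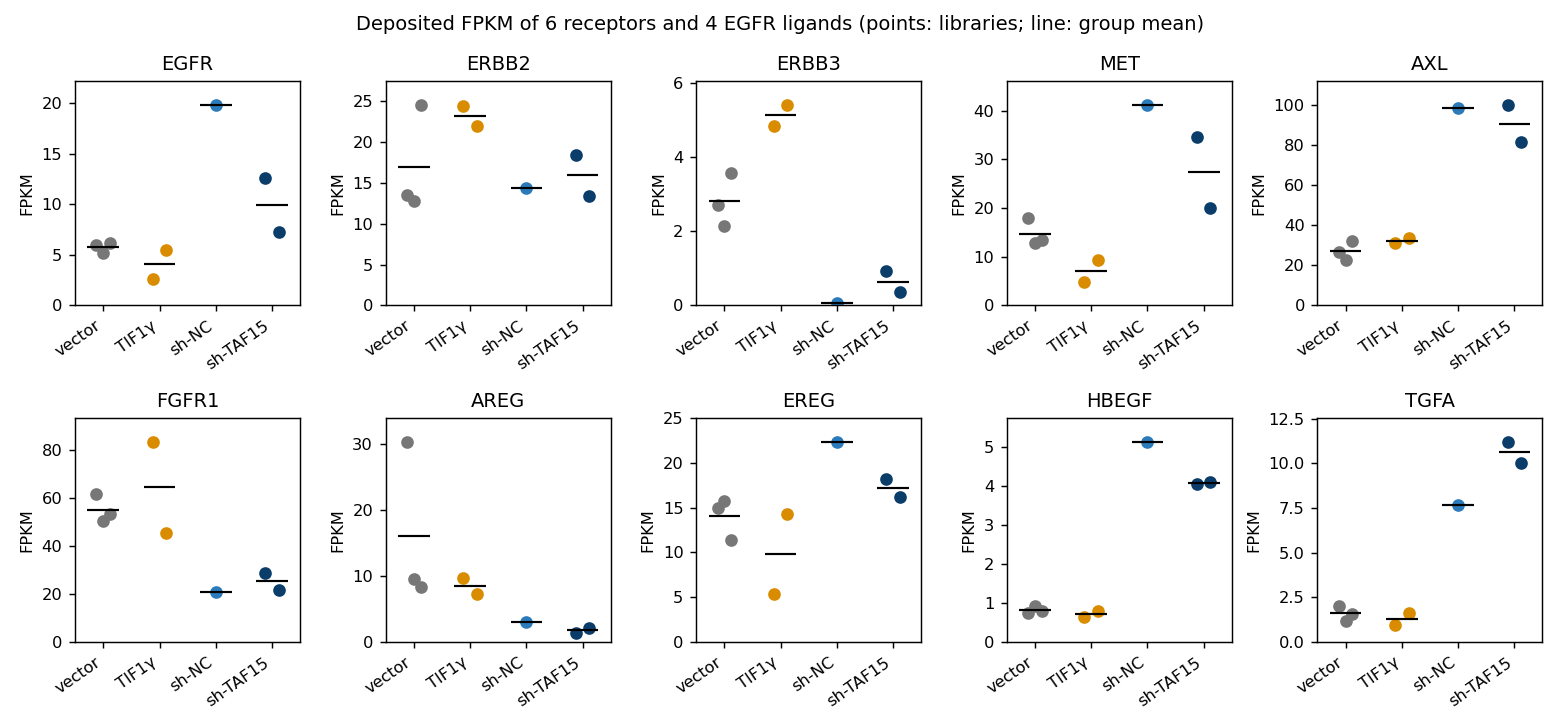
Deposited FPKM (vertical axes, linear, each from 0) of the 10 genes in the 4 groups; points are libraries and lines group means. On these unscaled values AXL, MET, HBEGF and TGFA are higher, and FGFR1, ERBB3 and AREG lower, in all 3 shRNA libraries than in any of the 5 others.

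Among the receptors, FGFR1 stood at 61.6, 50.6 and 53.4 FPKM in the 3 vector libraries, 83.5 and 45.6 in the 2 TIF1γ libraries, 20.9 in sh-NC, and 28.9 and 21.7 in the 2 sh-TAF15 libraries. Every shRNA library was below every other library. AXL, a receptor of the TAM family, ran the other way: 26.6, 22.8 and 32.2 FPKM in vector, 31.1 and 33.4 in TIF1γ, 98.3 in sh-NC, and 99.8 and 81.4 in sh-TAF15. FGFR1 ranked first and AXL second of the 6 receptors in all 5 vector and TIF1γ libraries, whereas AXL ranked first in all 3 shRNA libraries. The ratio of AXL to FGFR1 was 0.372 to 0.732 in the former and 3.45 to 4.71 in the latter. The 2 ranges of this ratio do not overlap.

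MET, the receptor of hepatocyte growth factor, stood at 17.9, 12.8 and 13.5 FPKM in vector, 4.78 and 9.35 in TIF1γ, 41.1 in sh-NC, and 34.7 and 20.1 in sh-TAF15. In deposited FPKM the TIF1γ libraries were the 2 lowest and the shRNA libraries the 3 highest, but after scaling vector replicate 1 lies above sh-TAF15 replicate 3. EGFR was at 6.03, 5.19 and 6.19 FPKM in vector, 2.59 and 5.53 in TIF1γ, 19.8 in sh-NC, and 12.6 and 7.28 in sh-TAF15. The lowest shRNA library was close above the highest vector library before scaling, and not after it. In both genes sh-TAF15 replicate 3 was the lowest of the shRNA libraries.

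ERBB2 was at 13.5, 12.8 and 24.5 FPKM in vector, 24.45 and 21.9 in TIF1γ, 14.4 in sh-NC, and 18.5 and 13.4 in sh-TAF15. In deposited FPKM, before scaling, it was the only 1 of the 10 genes whose shRNA and other libraries overlapped. Division by the scaling factors used for the tests makes MET, EGFR and EREG overlap too. These factors were 0.898 to 0.948 in the vector and 1.06 to 1.121 in the shRNA libraries. ERBB3 stood at 2.71, 2.15 and 3.57 FPKM in vector, 4.84 and 5.40 in TIF1γ, 0.0724 in sh-NC, and 0.920 and 0.368 in sh-TAF15. It was the least abundant receptor in each library except TIF1γ replicate 2, where MET and EGFR were lower. The sh-NC value amounts to about 8 fragments and the sh-TAF15 values to about 87 and 33, against 245 to 569 in the other libraries. In the vector libraries the neighbours MET and ERBB2 overlapped in level, so their order is not resolved there, while EGFR lay below both and above ERBB3.

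Of the ligands, AREG stood at 30.4, 9.61 and 8.32 FPKM in vector, 9.69 and 7.35 in TIF1γ, 3.12 in sh-NC, and 1.43 and 2.18 in sh-TAF15. Vector replicate 1 was high beside the other vector libraries, and all 3 shRNA libraries were below all others. The genome build used by the authors carries a near-identical second copy of AREG, so reads may have been split between copies, and the AREG level is uncertain to that extent. EREG was at 14.9, 15.8 and 11.4 FPKM in vector, 5.38 and 14.3 in TIF1γ, 22.35 in sh-NC, and 18.2 and 16.1 in sh-TAF15. The shRNA libraries were the 3 highest by a small margin that scaling removes, and TIF1γ replicate 2 was the lowest.

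HBEGF, which also binds ERBB4, stood at 0.738, 0.929 and 0.802 FPKM in vector, 0.646 and 0.807 in TIF1γ, 5.13 in sh-NC, and 4.06 and 4.09 in sh-TAF15. These values rest on about 23 to 40 fragments in the vector and TIF1γ libraries and 139 to 199 in the shRNA libraries. TGFA was at 2.03, 1.199 and 1.58 FPKM in vector, 0.983 and 1.64 in TIF1γ, 7.69 in sh-NC, and 11.2 and 10.01 in sh-TAF15. The shRNA libraries were above all others for both genes. The ratio of the shRNA median to the median of the other libraries was 6.34 for TGFA and 5.10 for HBEGF, the 2 highest of the 10 genes.

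**Figure D2:**
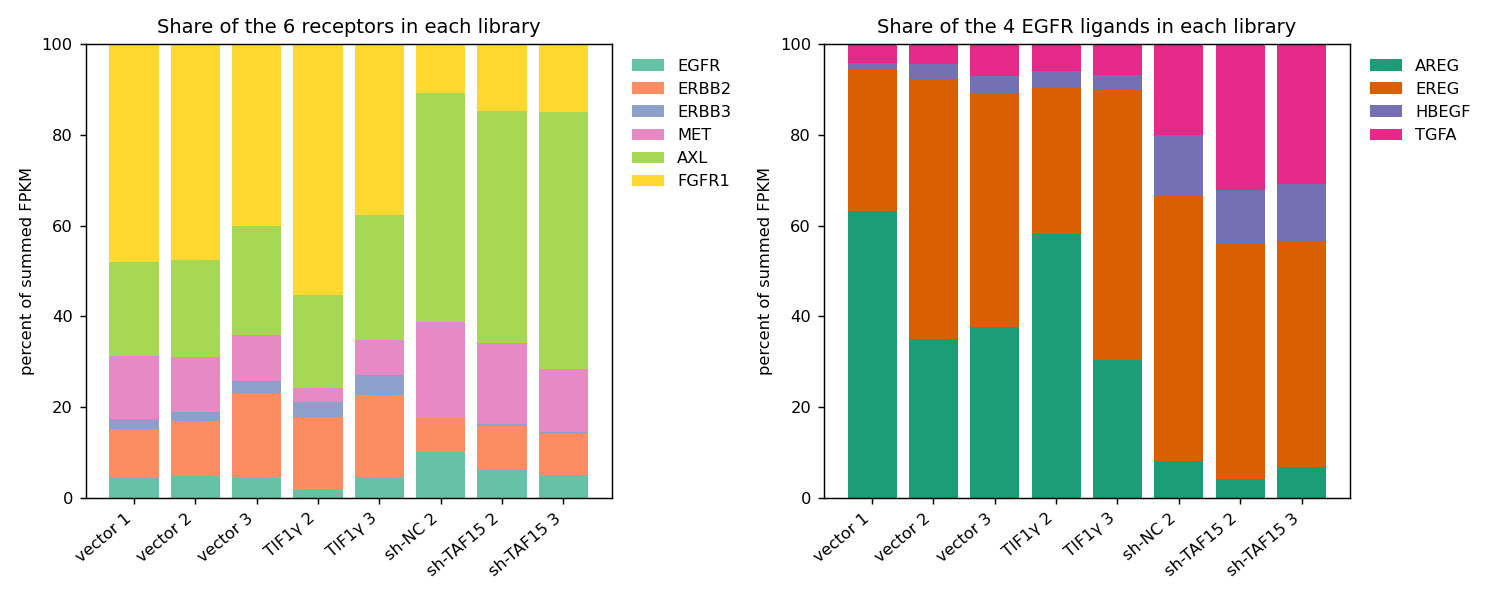
Stacked bars give each receptor's percent of the summed FPKM of the 6 receptors, and each ligand's percent of the 4 ligands, in the 8 libraries. AXL makes up 50.5% to 56.4% of receptor FPKM in the shRNA libraries and 20.6% to 27.6% elsewhere, and AREG 4.11% to 8.16% of ligand FPKM against 30.5% to 63.2%.

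The ligand pool changed in make-up more than in sum. The 4 ligands together came to 16.7 to 48.1 FPKM in the vector and TIF1γ libraries and 32.4 to 38.3 FPKM in the shRNA libraries, so the sums overlap. AREG supplied 30.5% to 63.2% of that sum in the former and 4.11% to 8.16% in the latter. TGFA supplied 4.23% to 7.16% and 20.1% to 32.1%, and HBEGF 1.54% to 3.87% and 11.6% to 13.4%. The EREG share overlapped, at 31.0% to 59.4% and 49.8% to 58.35%. The uncertainty of the AREG level carries over to these sums and shares. In each shRNA library the order was EREG, TGFA, HBEGF, AREG. In each of the other 5 libraries AREG and EREG held the first places, TGFA the third and HBEGF the last. Within the receptors, FGFR1 supplied 37.6% to 55.2% of the summed FPKM in the vector and TIF1γ libraries and 10.7% to 15.1% in the shRNA libraries. The ratio of EGFR to ERBB2 was 0.106 to 0.447 and 0.544 to 1.38 in the same order.

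Differences were tested with limma on log2(scaled FPKM + 1), in 1 fit of all 4 groups, with Benjamini-Hochberg adjustment over the 13907 genes that reached 1 FPKM in at least 2 libraries. An adjusted p under 0.05 is a call. All 10 genes passed that filter, though HBEGF reached 1 FPKM only in the 3 shRNA libraries and ERBB3 only in the 5 others, so for these 2 passing the filter was tied to the difference. A fold from this scale understates the change of a gene near 1 FPKM.

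The widest contrast set the shRNA lines (the mean of sh-NC and sh-TAF15) against the mean of vector and TIF1γ. Of the 10 genes, 5 rose (EGFR, MET, AXL, HBEGF and TGFA) and 3 fell (ERBB3, FGFR1 and AREG), while 41.4% of all genes tested were called, 20.0% higher and 21.4% lower. Among the 8 genes that reached 1 FPKM in both sets of lines, 6 were called. The 2 systems differ in construct, and selection and handling may differ too, so these cannot be told apart. Nor can fewer cells of a type and less RNA per cell be told apart in bulk RNA. Before scaling, the 9 genes whose shRNA and other libraries did not overlap in deposited FPKM stand beside 36.8% of all genes tested. Scaling makes MET, EGFR and EREG overlap, and the share over all genes was not counted on scaled values.

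Among the receptors, AXL rose by 1.47 on the log2 scale (SE 0.21, limma adjusted p = 0.000152), a fold of 2.77. MET rose by 1.46 (SE 0.28, adjusted p = 0.00149) and EGFR by 1.21 (SE 0.28, adjusted p = 0.00416). EGFR was not called when sh-TAF15 alone stood for the shRNA lines, an alternative added after the values were seen (log2 difference 0.71, limma adjusted p = 0.103). Its highest level was in the single sh-NC library. FGFR1 fell by 1.48 (SE 0.22, adjusted p = 0.000226), a fold of 2.79. ERBB3 fell by 1.94 (SE 0.24, adjusted p = 5.57e-05), and the log2 difference was -3.62 with a pseudocount of 0.1 in place of 1. ERBB2 had a log2 difference of -0.51 (SE 0.25, adjusted p = 0.115, 95% interval -1.05 to 0.03).

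Among the ligands, TGFA rose by 1.9 on the log2 scale (SE 0.24, limma adjusted p = 5.88e-05), a fold of 3.74, and HBEGF by 1.53 (SE 0.21, adjusted p = 0.000131), a fold of 2.89. With a pseudocount of 0.1 the log2 differences were 2.42 for TGFA and 2.26 for HBEGF. AREG fell by 1.93 (SE 0.37, adjusted p = 0.00258), a fold of 3.81. The 2 ligand genes that lie side by side on chromosome 4 therefore did not share a call: EREG had a log2 difference of 0.59 (SE 0.29, adjusted p = 0.12, 95% interval -0.04 to 1.23). EREG was called without TIF1γ replicate 3 (0.95, adjusted p = 0.00594) and when the FPKM were used without scaling (0.76, adjusted p = 0.0382). No test of the difference between AREG and EREG was made.

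**Figure D3:**
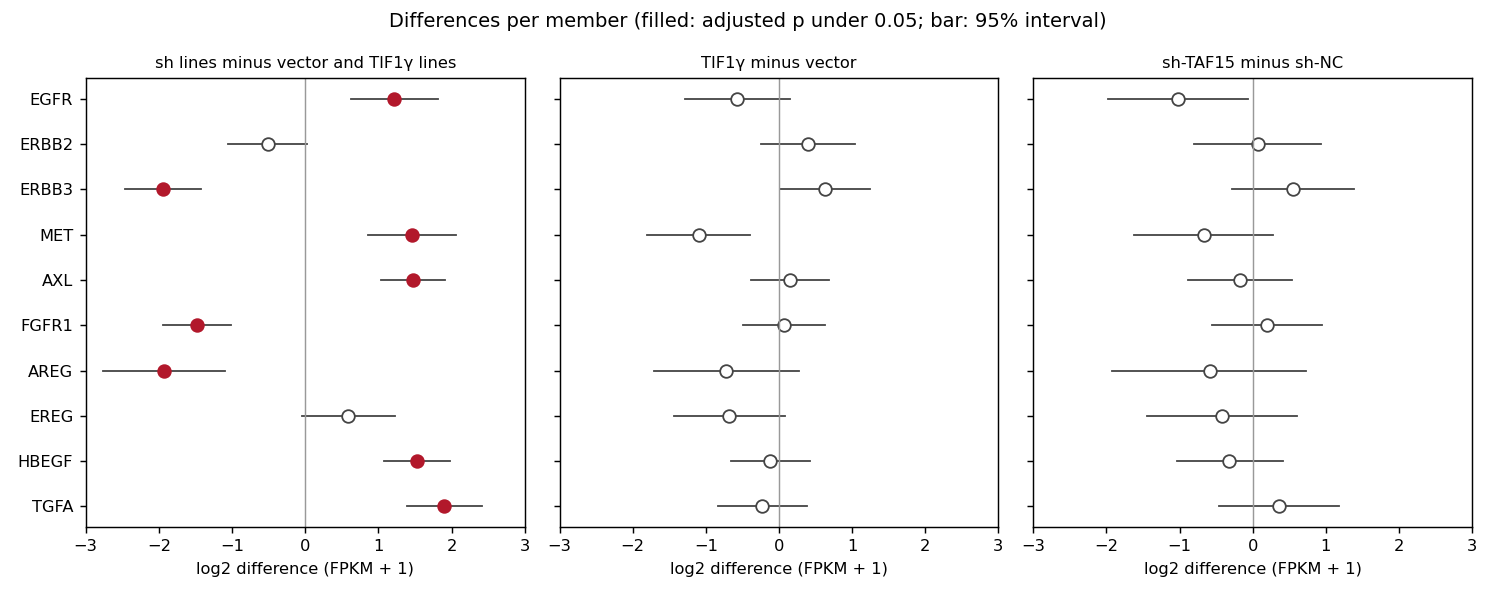
Log2 differences on log2(scaled FPKM + 1) of the 10 genes in 3 contrasts, with 95% intervals; filled points have an adjusted p under 0.05. In the contrast of shRNA lines with vector and TIF1γ lines 8 of 10 points are filled, and in the contrasts of TIF1γ with vector and of sh-TAF15 with sh-NC none is.

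The controls alone, sh-NC against vector, rest on the single sh-NC library, which was assumed to vary like the other groups. Here 4 genes were higher (EGFR, AXL, HBEGF and TGFA) and 3 lower (ERBB3, FGFR1 and AREG), beside 11.1% of all genes tested, 3.64% higher and 7.49% lower. AXL had a log2 difference of 1.64 (SE 0.31, limma adjusted p = 0.00433), HBEGF of 1.63 (SE 0.32, adjusted p = 0.00509) and TGFA of 1.61 (SE 0.36, adjusted p = 0.0115). FGFR1 was at -1.55 (SE 0.33, adjusted p = 0.00897) and ERBB3 at -1.90 (SE 0.36, adjusted p = 0.00451). The calls of EGFR (1.44, adjusted p = 0.0417) and AREG (-1.99, adjusted p = 0.0468) lay at the threshold. EGFR lost its call in 7 of 17 alternatives, among them without vector replicate 1 (adjusted p = 0.0545) and without vector replicate 3 (0.0762). AREG lost its call in 8 of 17, among them without TIF1γ replicate 2 (0.0664) or 3 (0.0696) and without sh-TAF15 replicate 2 (0.0731) or 3 (0.0721). MET missed the threshold at 1.25 (SE 0.42, adjusted p = 0.0736). This contrast shares its libraries with the wider one and is no separate evidence.

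In TIF1γ against vector, which asks what TIF1γ overexpression does, none of the 10 genes was called by limma and 2 had an unadjusted p under 0.05. Over all genes tested 0.0216% were called (0.0144% higher and 0.00719% lower), 3 genes in all, while 2746 had an unadjusted p under 0.05. MET had the lowest p of the 10, with a log2 difference of -1.10 (SE 0.33, unadjusted p = 0.00532, adjusted p = 0.193, 95% interval -1.81 to -0.39). Its difference was -0.59 without TIF1γ replicate 2 and -1.60 without TIF1γ replicate 3. ERBB3 was at 0.63 (SE 0.29, unadjusted p = 0.0475, adjusted p = 0.25).

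EGFR in the same contrast had a log2 difference of -0.57 (95% interval -1.28 to 0.15), and without TIF1γ replicate 2 it was -0.06. AREG was at -0.72 (95% interval -1.71 to 0.27), and without the high vector replicate 1 it was -0.17. EREG was at -0.68 (95% interval -1.44 to 0.08), and without TIF1γ replicate 2 it was 0.04. The remaining values were 0.39 for ERBB2, 0.15 for AXL, 0.07 for FGFR1, -0.12 for HBEGF and -0.23 for TGFA, with limma adjusted p from 0.444 to 0.898. A missing call does not show equal levels.

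The GC content of the transcripts moved with these differences. Across the 13534 tested genes with a transcript GC value, Spearman's rho between GC and the log2 difference was 0.745 for TIF1γ against vector, a description across genes, which are not independent. The 6 of the 10 genes with the lowest transcript GC (EREG, MET, AREG, TGFA, EGFR and HBEGF, 36.1% to 50.9%) had differences below 0, and the 4 with the highest (ERBB3, AXL, FGFR1 and ERBB2, 52.0% to 59.3%) above 0. With the GC trend removed from each library, MET was at -0.69 (limma adjusted p = 0.689), ERBB3 at 0.54 (adjusted p = 0.711), EGFR at -0.43, AXL at -0.02 and FGFR1 at -0.19. For the shRNA lines against the others rho was -0.558, and all 8 calls remained with the trend removed: AXL at 1.71, HBEGF at 1.59, TGFA at 1.68, MET at 1.03, EGFR at 1.08, ERBB3 at -1.81, FGFR1 at -1.12 and AREG at -2.19. Over all genes tested that setting called 28.6%. ERBB2 moved from -0.51 to -0.02 and EREG from 0.59 to 0.01. What made the trend was not tested.

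**Figure D4:**
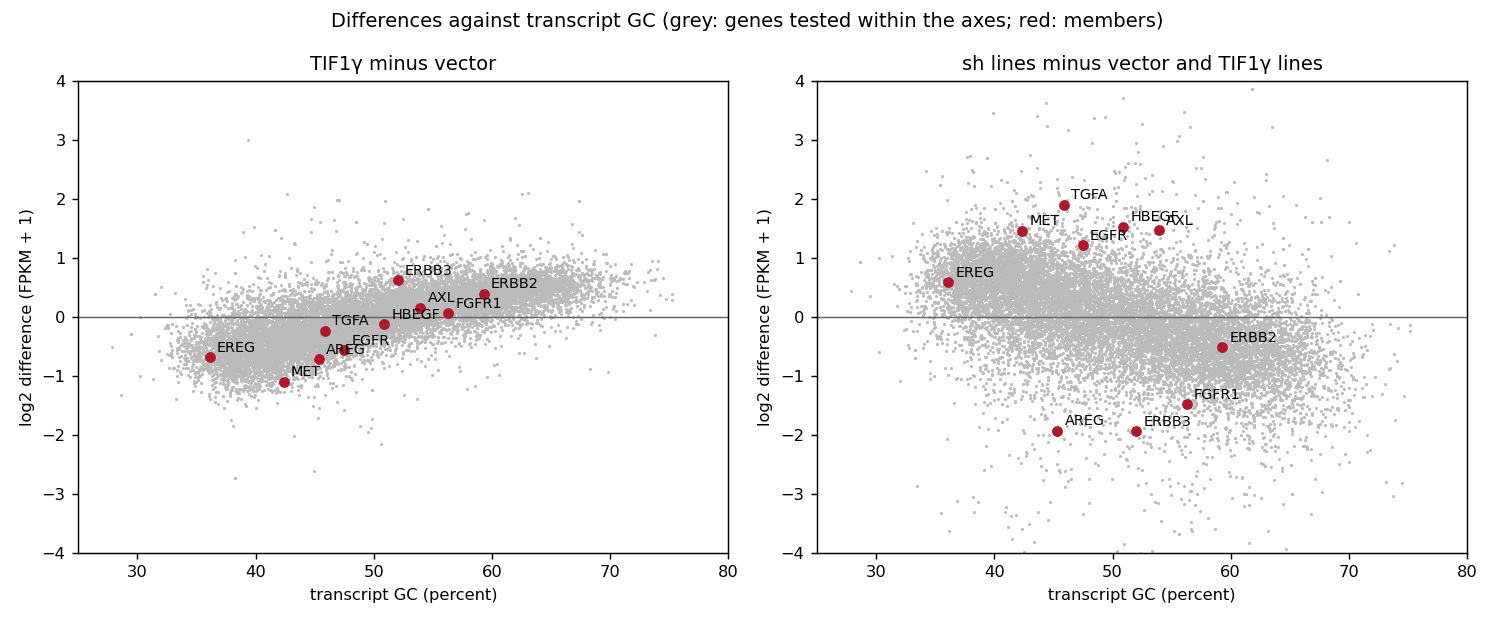
Log2 difference on log2(scaled FPKM + 1) against transcript GC (percent) for the tested genes within the axes (grey) and the 10 genes (red), for TIF1γ against vector and for the shRNA lines against the others. Grey points slope upward in the former (rho 0.745) and downward in the latter (rho -0.558), and AXL (GC 53.9%), HBEGF and TGFA lie far above the grey cloud's middle in the latter.

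In sh-TAF15 against sh-NC, the knockdown beside its own control, limma called none of the 10 genes, and 1 had an unadjusted p under 0.05. Over all genes tested 0.0575% were called (0.0503% higher and 0.00719% lower), 8 genes, while 784 had an unadjusted p under 0.05. EGFR had a log2 difference of -1.02 (SE 0.45, unadjusted p = 0.0387, adjusted p = 0.847, 95% interval -1.98 to -0.06), with levels of 12.6 and 7.28 FPKM in sh-TAF15 and 19.8 FPKM in sh-NC. MET was at -0.67 (95% interval -1.63 to 0.28), AREG at -0.59 (-1.92 to 0.73) and EREG at -0.42 (-1.44 to 0.60). ERBB3 was at 0.55 (-0.28 to 1.38) and TGFA at 0.36 (-0.46 to 1.18). AXL, FGFR1, ERBB2 and HBEGF lay between -0.32 and 0.20. The control is 1 library, and the AXL interval alone spans -0.89 to 0.53. The difference between the TIF1γ effect and the sh-TAF15 effect was called for 0 of the 10 genes, each at a limma adjusted p of 0.999 and none at an unadjusted p under 0.05, beside 0.0431% of all genes tested (0.0144% higher and 0.0288% lower) and 510 genes at an unadjusted p under 0.05.

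The genes around these receptors were examined as lists in the contrast of shRNA lines with the others. Each list is set beside the 41.4% called over all genes tested and their median log2 difference of 0.01. The lists were chosen with earlier results of these data known, so their shares are descriptions and no independent evidence. Of the 8 other ErbB ligands and receptors, 3 were tested and 2 rose. NRG1, the neuregulin that binds ERBB3, was at 23.4 to 39.8 FPKM in the vector and TIF1γ libraries and 55.4 to 71.9 in the shRNA libraries (log2 difference 0.90, limma adjusted p = 0.00362), so it was higher where ERBB3 was lowest. NRG4, a ligand of ERBB4, had a log2 difference of 1.06 (adjusted p = 0.00395). Neither was called with the GC trend removed (NRG1 0.55, adjusted p = 0.0556, and NRG4 0.53, adjusted p = 0.134). EGF and BTC, the remaining EGFR ligands with any signal, stayed at or below 0.214 and 0.649 FPKM, and EPGN, NRG3 and ERBB4 are listed at 0 in all libraries. AREG, EREG, HBEGF and TGFA were thus the only EGFR ligands to reach 1 FPKM in any of these 8 libraries.

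Of 44 other receptor tyrosine kinases 19 were tested, and 2 rose and 9 fell (57.9% called, median log2 difference -0.38). Of the relatives of FGFR1, FGFR4 was at 21.9 to 52.1 FPKM in the vector and TIF1γ libraries and 6.79 to 7.70 in the shRNA libraries (log2 difference -2.01, limma adjusted p = 3.94e-05), and FGFR2 at 1.18 to 1.91 and 0.0397 to 0.128 (-1.31, adjusted p = 0.00077). FGFR2 passed the filter only through the vector and TIF1γ libraries, as did INSR and EPHB6 among the receptors called lower. FGFR3 was called lower (-0.97, adjusted p = 0.00621), but not with the GC trend removed (-0.38, adjusted p = 0.181) nor with sh-TAF15 alone (-0.46, adjusted p = 0.205). Its sh-TAF15 levels of 2.27 and 1.78 FPKM lay within the 1.72 to 3.85 FPKM of the vector and TIF1γ libraries, and sh-NC was at 0.423 FPKM. NTRK3, the receptor of neurotrophin 3, was at 15.8 to 42.4 and 1.86 to 3.34 FPKM in the same order (-3.30, adjusted p = 6.09e-07). With the GC trend removed 2 rose and 5 fell (36.8%), and with sh-TAF15 alone 1 rose and 7 fell (42.1%).

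**Figure D5:**
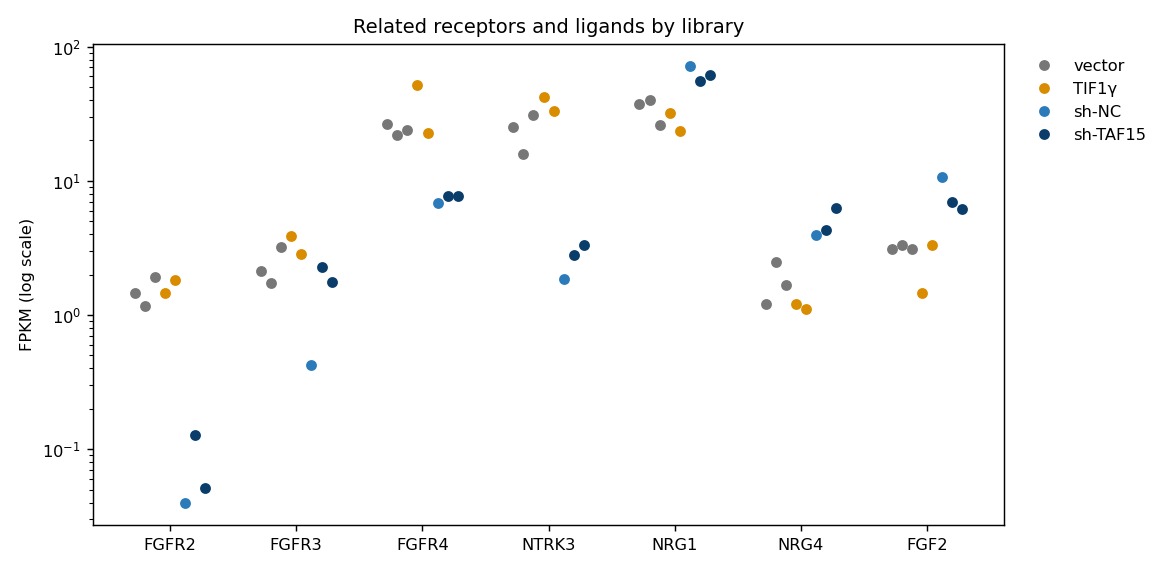
FPKM (log axis) of FGFR2, FGFR3, FGFR4, NTRK3, NRG1, NRG4 and FGF2 in each library, with points coloured by group. NTRK3, FGFR4 and FGFR2 are lower, and NRG1 and FGF2 higher, in the 3 shRNA libraries than in the 5 others.

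A further list of 16 genes held ligands of MET, TAM and FGF receptors, with related genes, carriers and co-receptors. Of these, 8 were tested, 2 rose and 1 fell (37.5% called, median 0.14). FGF18, called higher (log2 difference 0.66, limma adjusted p = 0.03), reached 1 FPKM only in sh-TAF15, so passing the filter was tied to its difference. FGF2, which binds FGFR1, was at 1.45 to 3.31 FPKM in the vector and TIF1γ libraries and 6.16 to 10.7 in the shRNA libraries (log2 difference 1.2, limma adjusted p = 0.00262), so the ligand was higher where the receptor was lower. The FGF2 difference was 0.63 with the GC trend removed (adjusted p = 0.034), and with the replicate block as well it was not called (0.65, adjusted p = 0.0901). SDC1, a heparan sulphate carrier, had a log2 difference of -0.84 (adjusted p = 0.00542), with 58.35 FPKM in sh-NC, 98.6 and 94.5 in sh-TAF15 and 94.6 to 170.5 in the vector and TIF1γ libraries. No gene of the list was called lower with the GC trend removed or with sh-TAF15 alone, when 4 and 2 genes were called higher. HGF, the ligand of MET, reached at most 0.0493 FPKM in any library. GAS6 and PROS1, the TAM receptor ligands, had log2 differences of 0.07 (adjusted p = 0.807) and 0.55 (adjusted p = 0.164) beside the rise of AXL.

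Of 16 genes for shedding of ligands and receptors 15 were tested, 4 rose and 6 fell (66.7% called, median -0.37). The proteases ADAM19 and ADAM12 rose by 1.65 (limma adjusted p = 0.00012) and 1.49 (adjusted p = 0.000737), and the rhomboid protease RHBDL2 fell, with 0.909 to 2.08 FPKM in the vector and TIF1γ libraries and at most 0.0418 FPKM in the shRNA libraries. ADAM12 and RHBDL2 passed the filter only through the libraries where they were high. With the GC trend removed 3 genes of the list rose and 2 fell (33.3%, median 0.03, against 28.6% over all genes tested), and with sh-TAF15 alone 2 rose and 3 fell (33.3%, against 26.4%). Of 28 adaptors and relay genes 27 were tested, 7 rose and 2 fell (33.3%, median 0.31). PTPN11, the phosphatase SHP2 that passes receptor signals to RAS, was at 1.07 (adjusted p = 0.00481) and MAP2K2, a kinase upstream of ERK, at -0.95 (adjusted p = 0.00528). With the GC trend removed the relay counts were 3 higher and 1 lower (14.8%), and with sh-TAF15 alone as the shRNA lines 1 higher and none lower (3.70%).

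Of 22 receptor inhibitors and turnover genes 20 were tested, 5 rose and 1 fell (30% called, median 0.22). The gene that fell was ERRFI1, a feedback inhibitor of EGFR, at 25.7 to 56.4 FPKM in the vector and TIF1γ libraries and 14.2 to 19.8 in the shRNA libraries (log2 difference -1.33, limma adjusted p = 0.00251). SH3KBP1, an adaptor of CBL in receptor endocytosis, was at 1.15 (adjusted p = 0.00119). The counts were 3 higher and 2 lower (25%) with the GC trend removed, and with sh-TAF15 alone 3 rose and 1 fell (20.0%). All 18 ERK-responsive transcripts were tested, 5 rose and 4 fell (50.0%, median 0.14), so the list did not move one way. FOSL1, an AP-1 subunit, rose by 1.75 (adjusted p = 2.06e-05) and PHLDA1 by 1.46 (adjusted p = 6.71e-05), and IER3 fell by 1.34 (adjusted p = 0.000303). In the same 2 alternatives 5 rose and 2 fell (38.9%), and 4 rose and 4 fell (44.4%). Of 14 targets and factors of YAP and TEAD 13 were tested, 9 rose and none fell (69.2%, median 0.90). TEAD1, a DNA-binding partner of YAP, was at 1.73 (adjusted p = 0.000358) and PTPN14 at 1.66 (adjusted p = 0.000162). With the GC trend removed 9 rose again (28.6% over all genes tested), and with sh-TAF15 alone 6 rose (46.2%, against 26.4% over all genes tested). In TIF1γ against vector and in sh-TAF15 against sh-NC limma called no gene of any of these 8 lists.

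Summed fibroblast and leukocyte markers differed between the shRNA libraries and the others, and the leukocyte sum was almost all CD14. The 6 fibroblast markers summed to 0.378 to 1.27 FPKM in the vector and TIF1γ libraries and 4.13 to 5.99 in the shRNA libraries, with 2 of 6 reaching 1 FPKM in any library, COL1A1 highest at 3.64 FPKM and DCN at 0 in all. The 5 leukocyte markers summed to 11.7 to 35.1 and 4.49 to 10.2 FPKM, with CD14 the only marker at 1 FPKM and CD3E at 0 in all. None of the 4 endothelial markers in the files reached 1 FPKM, and their sums overlapped (0.055 to 0.415 and 0.071 to 0.221 FPKM). The part of such cell types in the differences of AXL, MET, TGFA and the others was not tested.

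EGFR, MET, AXL, HBEGF, TGFA, ERBB3, FGFR1 and AREG differed along the split between the construct systems, while ERBB2 and EREG were not called there. This split enters every correlation over the 8 libraries, so the correlations are descriptions. On the log2(scaled FPKM + 1) scale Pearson's r over 8 libraries was 0.96 between AXL and HBEGF, 0.95 between HBEGF and TGFA, 0.95 between EGFR and MET, and -0.97 between FGFR1 and HBEGF. AREG and EREG had an r of -0.21. ERBB2 had its highest r among the 10 genes with ERBB3, 0.77.

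By the same measure, over all tested genes with a mean of at least 2 FPKM, the genes most like each of the 10 were as follows. EGFR was most like CELF1 (r 0.993) and BAG5 (0.992), and MET most like GNG12 (0.998) and CCNT1 (0.997). AXL was nearest to PLEKHA2 (0.992) and PTPN1 (0.988), FGFR1 to WNT7B (0.994) and CLU (0.991), and ERBB3 to RINL (0.998) and ANG (0.995). For ERBB2 the nearest were MT-CO1 (0.992) and ENGASE (0.988). HBEGF was nearest to BCHE (0.995) and PHLDA1 (0.995), TGFA to HOXA5 (0.990) and MLLT11 (0.990), EREG to PNN (0.986) and GOLGA5 (0.984), and AREG to MFSD14CP (0.959) and KCTD1 (0.949). AREG had the lowest likeness to its nearest genes.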

How the data were processed

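RNA-seq values of 8 libraries from A549 cells were used. The authors deposited FPKM per Ensembl gene, with no logarithm. Per the submitters' processing notes the tools were cutadapt 1.9.1, HISAT2 2.0.1 and HTSeq 0.6.1, with GRCh37. How the FPKM were computed, and whether strand was used, is not given in the sources used here. Per the labels' protocols, mRNA was isolated by poly(A) selection or ribosomal RNA removal.

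Of 57879 identifiers 52323 were given a symbol from a name table and GENCODE 29. Genes with an exact 0 in a library beside 100 FPKM or more in another (19, of which 11 would pass the filter) were set aside, since such a 0 may be a failed estimate. Genes at 1 FPKM or more in at least 2 libraries were kept (13907). Libraries were scaled with trimmed means of their log2 ratios to the average library (30% of ratios and 5% of abundances trimmed, factors 0.898 to 1.121), 1 was added, and log2 was taken. limma 3.58.1 in R 4.3.3 (lmFit, eBayes with trend and robust) was fitted without covariates, with 4 degrees of freedom left among samples and 9.54 from the prior. The fit was also run on simulated log2 values with independent normal noise and no GC trend. That run cannot show how the fit behaves under the GC trend of these data. P values were adjusted by Benjamini-Hochberg over all genes tested, and 95% intervals use the moderated variance. Printed levels are the deposited FPKM, unscaled.

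Depth was recovered from the step between low values of genes with a single transcript (83.7% to 86.6% of these within 0.05 of a whole multiple), so fragment numbers are approximate. The labels call the samples biological replicates, with no more said of their source. The alternatives were other pseudocounts, filters and scalings, no trend, a lowess fit of transcript GC (span 0.3) removed from each library, the replicate number as a block, each replicate left out, and only the groups compared. The 10 genes, the lists and the contrasts were chosen with earlier results of these data known. Genes named from the lists were the 3 with the lowest p per list and contrast. The ligands and ErbB genes below 1 FPKM, GAS6, PROS1 and FGFR3 were named besides for their relation to the 10 genes, after their values were seen. INSR and EPHB6 were named only for how they passed the filter.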

Additional observations from a re-analysis of the deposited data

How the results depend on the processing

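Between the shRNA lines and the others, ERBB3, MET, AXL, FGFR1, AREG, HBEGF and TGFA kept their direction and call in all 18 alternatives, and EGFR in all but sh-TAF15 alone. The number of genes called there was 5758, against 2481 with the replicate block and the GC trend removed together, and 3672 with sh-TAF15 alone, chosen after seeing the data. For sh-NC against vector 1547 became 1020 with the replicate block and 591 with the block and GC removal.

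For TIF1γ against vector 3 genes became 5 and 6 with pseudocounts of 0.1 and 0.5, 0 with no filter and 0 at a mean of at least 2 FPKM, 1 with GC removed, 43 with the replicate block, 1 with block and GC removal, and 1 to 283 when a replicate was left out (283 without vector replicate 3, 1 without TIF1γ replicate 2). TRIM33 was called without vector replicate 3 (1.29, limma adjusted p = 0.0432). For sh-TAF15 against sh-NC 8 became 21 with a pseudocount of 0.1, 187 with no filter, 23 at a mean of at least 2 FPKM, 4 with GC removed, 52 with the replicate block, 4 with block and GC removal, 3 with only these groups, and 4 to 49 when a replicate was left out (49 without vector replicate 2). The difference of effects went from 6 to 103 with no filter, 31 with the replicate block and 3 to 16 when a replicate was left out. The cause was not tested.

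Some log2 differences changed sign, among them AREG and EREG in TIF1γ against vector, which were -0.72 and -0.68. For TIF1γ against vector these were, with GC removed, AXL -0.02 and FGFR1 -0.19, with block and GC removal, ERBB2 -0.05, AXL -0.01, FGFR1 -0.09, AREG 0.07 and TGFA 0.09, and, when a replicate was left out, FGFR1 from -0.26 to 0.40 (-0.26 without TIF1γ replicate 2, -0.01 without vector replicate 2), EREG from -1.40 to 0.04 and TGFA from -0.49 to 0.03 (the last 2 upper values without TIF1γ replicate 2, the lower ones without TIF1γ replicate 3). For sh-TAF15 against sh-NC they were ERBB2 at -0.11 (GC removed), -0.02 (replicate block), and -0.18 (block and GC removal), and, when a replicate was left out, ERBB2 from -0.18 to 0.31 and FGFR1 from -0.03 to 0.42, with the lower values without sh-TAF15 replicate 2. For sh-NC against vector they were ERBB2 at 0.05 with GC removed and 0.04 with block and GC removal. Also for sh-NC against vector, ERBB3 (adjusted p = 0.0504) and FGFR1 (0.0649) were not called with block and GC removal, nor FGFR1 with no filter (0.0526), while MET was called with no scaling (1.43, adjusted p = 0.0311).

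Whether the replicate numbers pair the samples is not known. Deviations of same-numbered libraries from their group means correlated at 0.172 and 0.121 between vector and TIF1γ. The values were -0.373 and -0.238 between vector and sh-TAF15, and -0.241 and -0.241 between TIF1γ and sh-TAF15. Deviations within TIF1γ, and within sh-TAF15, mirror each other, so each same-numbered value has an other-numbered counterpart that differs only in sign. These correlations therefore cannot decide the question. The sh-TAF15 group shares only 1 number with sh-NC. Depth limits ERBB3 in the shRNA libraries and HBEGF in the others. The single sh-NC library limits every value that rests on it, and the log2 differences of ERBB3, HBEGF and TGFA depend on the pseudocount.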
